A study of Rattus norvegicus with 6 samples.

Results

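Cytosolic ribosomal proteins are the protein building blocks of the ribosomes that translate nuclear-encoded messages. The genes described here were chosen by name: symbols of the count table that follow the Rpl, Rps or Rplp pattern with a number and at most a closing a, x or y, and that held at least 600 counts over the 6 libraries. All 76 symbols of that pattern passed the count rule, so no gene lay just outside it. The lowest total was 11651 counts, for Rpl30. They are 76 of the 29884 genes in the table, and comprise 46 genes of the large subunit, among them the stalk genes Rplp0, Rplp1 and Rplp2, and 30 genes of the small subunit. All 76 were measured well enough to be tested among 16478 genes. The ribosome's markers Rpl3, Rplp0, Rps6 and Rps18 were each among the abundant transcripts of every library.

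Each ribosome holds 1 copy of most of these proteins, so the cell makes them in matched amounts, and unassembled subunits are degraded. The small subunit reads the message, the large subunit joins the amino acids and carries the tunnel through which the new chain leaves, and the stalk recruits the factors that drive each step. Their messages belong to the class that begins with a run of pyrimidines, the 5′ TOP, through which the kinase mTOR and the protein Larp1 control their translation. In neurons, which maintain large cell bodies and long axons, ribosomes also work in the axon.

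RNA came from trigeminal ganglia, the sensory ganglia of the face, of wild type rats. In the 3 injury samples the infraorbital nerve had been constricted (CCI-ION), which models facial nerve pain. In the 3 conduit samples that constriction was followed by a nerve conduit with a light-driven gel (SFM-Gel @NGC-Light). The labelled days run from 14 to 16 for injury samples 1 to 3 and from 17 to 19 for conduit samples 1 to 3. Labelled day thus separates the groups fully, so treatment and day cannot be told apart. Of the labelled batches, whose nature is not stated, batch 1 holds 2 injury samples (1 and 2), batch 2 a sample of each group (injury sample 3, conduit sample 1) and batch 3 the remaining conduit samples. Uninjured ganglia were not analysed here. Nothing states whether samples came from different animals, so p-values measure only the spread between these samples. Whole tissue was measured, so fewer cells of a type and less RNA per cell cannot be told apart.

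Libraries held 40172473 to 41903629 counts. The 8 sensory neuron markers were detected in every library, with summed levels of 9141 to 10303 counts scaled to library size (CPM) in injury and 8047 to 11601 in conduit. Injury sample 1 stood apart for the ribosomal genes, as described below, and results are given with and without it. Conduit sample 2 held most of the muscle RNA, with 7429 CPM over 5 muscle markers against 7.09 to 417 in the other libraries. CPM values here are scaled by the trimmed mean of M values (TMM), and a log2 fold change is conduit over injury.

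Many of these genes share a feature at the start of the message that their names did not use. RefSeq promoter sequences of the later build GRCr8 were available for 61 of the 76 members. A run of at least 6 C or T bases touching the stretch from 2 bases before to 3 bases after the annotated start was found in 42 of the 61 (68.9%), against 13.1% of all 27457 promoters in the table and 13.0% of those of tested genes. On the same strand, a run of at least 6 A or G bases touching that stretch was found in 8.20% of members and 16.8% of all promoters. The windows below run from 20 bases before to 10 bases from the start, with the C and T run at the start in capitals, and are shown because the first 6 hold such a run and the last 4 do not.
Rplp0: ctggtgaccgcaccgcaCTTCTCTCgccag
Rplp1: tgcgcgcaggcgcatgtgaTCCTTTCCTCa
Rpl12: tgggcggagcaacatccgTCTTTTCggctt
Rps18: aactacacgtcacttccgCTCTCTCTTCCa
Rps9: cgcgatccggcggccacgTTTCTCTTTgtc
Rps27a: ggccgcctaaagggcggTTCCTTCgacccg
Rpl3: ctgcaccagcgcctgctcgaTCTCTatcgg
Rpl11: gcccaggggacttgaagCTTgtttggtgct
Rpl41: gaaggggcggctcggaagTgacgacaccaa
Rps6: ttcgtgacgcctcctaggcggTCggctgtg

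These lie at chr12:46718381-46718410 (minus strand) for Rplp0, chr8:71290863-71290892 (minus) for Rplp1, chr3:36661920-36661949 (plus) for Rpl12, chr20:4933725-4933754 (plus) for Rps18 and chr1:74430428-74430457 (minus) for Rps9. Those of Rps27a, Rpl3, Rpl11, Rpl41 and Rps6 lie at chr14:107488932-107488961, chr7:113507981-113508010, chr5:153560793-153560822, chr7:1563488-1563517 and chr5:106420531-106420560, all on the minus strand. The runs were 7 bases long in Rpl12 and Rps27a, 8 in Rplp0, 9 in Rps9, 10 in Rplp1 and 11 in Rps18, and the run of Rpl3 was 5. The median run was 10 bases over the members and 2 over all promoters. Both subunits had it at like shares, 26 of 38 large and 16 of 23 small subunit members. A run of at least 5 gave 73.8% of members and of at least 8 gave 60.7%, against 20.3% and 6.33% of all promoters. The 60 mitochondrial ribosomal protein genes with a promoter, whose products translate messages of mitochondrial DNA, held the 6-base run in 11.7%. Initiation factor genes held it in 14.3% of 28 and ribosome assembly genes in 6.98% of 43. An annotated start is a single position, so a window without a run says only that the letters are not there. Some counted runs lie wholly before that position, as in Rpl13a (-15 to -2) and Rpl23 (-10 to -1). The run is thus a looser measure than a 5′ TOP, with which the message itself begins.

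Ribosomal protein messages were among the most abundant of the ganglion, and their levels per length spanned a 14.4-fold range. FPKM is the authors' count scaled by gene length and library total, so a ranking of genes by it depends on the length used for each. The median member stood at 266 FPKM, against 5.08 over all tested genes, and 34 members ranked among the 200 highest genes and 67 among the 500 highest. The subunits had similar medians, 267 FPKM for the large and 259 for the small.

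At the top stood Rpl41, the smallest ribosomal protein, with 599.9 ± 81.4 FPKM (SD, n = 6 libraries), followed by Rplp0, the base of the stalk, with 502 ± 42.4. Rps29, a small zinc-binding protein, had 490 ± 67.6, Rpl23a, which lines the mouth of the exit tunnel, 474 ± 37.4, and Rps16, whose tail reaches the tRNA in the decoding site, 464 ± 60.5. The spreads of these 5 over libraries overlapped from each to the next. At the bottom, Rpl22, an RNA-binding protein with a paralog that can replace it, had 41.5 ± 2.30 FPKM. It was followed by Rpl30 with 67.3 ± 32.4, Rpl36a, which sits at the exit site for tRNA, with 84.9 ± 11.97, Rpl21 with 92.4 ± 8.87, and Rpl12, a protein of the stalk base, with 94.2 ± 15.3. Rpl22 was the lowest member by FPKM in all 6 libraries. Its length was 1883 bases and that of Rpl21 1682, against a median of 709 over members. By mean CPM Rpl22, at 79.0 in injury and 77.5 in conduit, lay above Rpl36a, at 59.6 and 54.3. Rpl30 and Rpl36a also have copies in the count table, described below, whose counts are not included here. The number of copies that RefSeq names for a member went with its level only weakly (Spearman -0.04 over 76 members, given as a description).

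**Figure D1:**
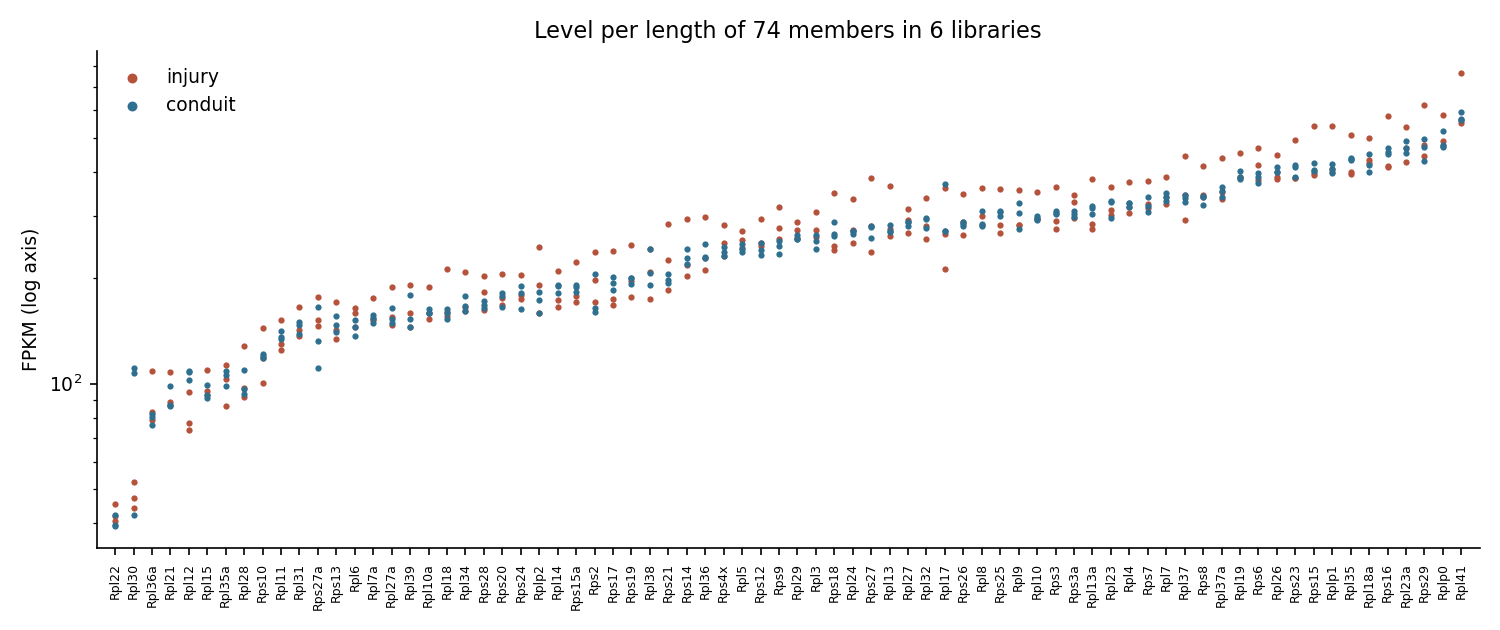
Level of 74 of the ribosomal protein genes in FPKM on a log axis, 1 point per library, injury in red and conduit in blue, ordered by mean. Most genes lie between 100 and 500 FPKM with the highest injury point, injury sample 1, above the rest; Rpl30 is split between libraries.

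The comparison of conduit with injury asked whether the transcripts of the ganglion differed between these groups, which also differ in labelled day. No ribosomal protein gene passed the test. EdgeR's quasi-likelihood test called 0 of 76 at an adjusted p under 0.05, where it called 0.00607% of all genes (1 of 16478). DESeq2 called 0 members and 1.15% of the genes it tested, and limma-voom 0 members, beside 0.00607% of all genes. At an unadjusted edgeR p under 0.05 stood 2 members, Rpl12 and Rpl30, both higher in conduit, beside 2.99% of all genes higher and 2.36% lower. The groups did not overlap for Rpl12, higher in every conduit library and the only member on that side, beside 5.41% of all genes. The members' shares are near or below this background.

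By direction, 26 members were higher and 50 lower in conduit, where 50.5% of all genes were above 0, and the differences were small. The median log2 fold change was -0.02 over members, with quartiles of -0.06 and 0.03, and 0.00 over all genes. Apart from Rpl12, Rpl30 and Rpl17, every member lay between -0.17 (Rps27a) and 0.10 (Rpl35a). The split depended on the scaling: 10 were higher and 66 lower with total counts (median -0.07, all genes -0.05), and 19 and 57 with upper-quartile scaling (median -0.04, all genes -0.02). It turned without injury sample 1, when 73 were higher and 3 lower (median 0.13, all genes 0.02, with 54.1% of all genes above 0). In that fit 6 had an unadjusted edgeR p under 0.05, all higher, beside 2.88% of all genes higher, and 0 were called, beside 0.225% of all genes. Without injury sample 1 and conduit sample 3, an alternative added after seeing the data, 68 were higher and 8 lower (median 0.10, all genes 0.00, with 50.6% of all genes above 0). There 11 had an unadjusted edgeR p under 0.05, all higher, beside 5.29% of all genes higher, and edgeR called 1, Rpl30, beside 0.251% of all genes. Batch 2 alone, a single library against a single library, gives no test, and in it 58 were higher and 18 lower (median 0.05).

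Small subunit genes had a median of -0.02, with 8 higher and 22 lower, and ranged from -0.17 to 0.06. Rps6, the protein that S6 kinase phosphorylates downstream of mTOR, stood at 382, 318 and 298 CPM in injury samples 1 to 3 and at 305, 306 and 335 in conduit samples 1 to 3. The groups overlapped, with injury sample 1 highest (log2 fold change -0.08, SE 0.11, edgeR unadjusted p = 0.523). Rps18, in the head of the subunit, was 197, 130 and 131 CPM in injury and 146, 164 and 154 in conduit. The conduit libraries lay above injury samples 2 and 3 and below injury sample 1 (log2 fold change 0.02, SE 0.17), a direction that was negative, at -0.03, with total counts. Without injury sample 1 it was 0.25 (edgeR unadjusted p = 0.0353, adjusted p = 0.641).

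Rps9, at the site where the message enters, was 231, 187 and 180 CPM in injury and 178, 170 and 184 in conduit. The groups overlapped only between injury sample 3 and conduit sample 3 (-0.17, SE 0.11). Its difference was -0.037 without injury sample 1 and -0.014 within batch 2. Of the 7 genes listed for the message channel and decoding site, 1 was higher and 6 lower, with a median of -0.06.

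Rps27a, made as a fusion with ubiquitin, was 196, 151 and 162 CPM in injury and 178, 147 and 127 in conduit. Conduit sample 3 was its lowest library, whereas 57 of 76 members were above their own mean there. Within batch 2 its direction was opposite, 0.14 against -0.17 with all libraries. Rps21 was 99.6, 60.5 and 75.7 CPM in injury and 67.3, 72.5 and 70.1 in conduit. Injury sample 1 set its direction (-0.17, SE 0.17), since it was 0.05 without that library. Rps4x, the X-linked form of its protein, Rps19, the gene most often mutated in Diamond-Blackfan anaemia, and Rps26, which touches the message before it leaves, all overlapped between groups. Rps4x had 307, 253 and 241 CPM in injury and 256, 257 and 258 in conduit. Rps19 had 184, 123 and 140 CPM in injury and 145, 143 and 154 in conduit, and Rps26 154, 109 and 123 in injury and 123, 125 and 130 in conduit. All 3 were highest in injury sample 1. The 19 members linked to Diamond-Blackfan anaemia split 9 higher and 10 lower, with a median of -0.01.

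Large subunit genes had a median of -0.01, with 18 higher and 28 lower. Rpl3, beside the site where peptide bonds form, was 464, 385 and 378 CPM in injury and 385, 365 and 396 in conduit. Its groups overlapped, and injury sample 1 was highest (-0.10, SE 0.11). Rpl10, which is added late in assembly, was 272, 214 and 219 CPM in injury and 223, 235 and 235 in conduit. Rpl5 and Rpl11, which join the ribosome with its smallest RNA and bind the p53 regulator Mdm2 when free, also overlapped. Rpl5 was 299, 264 and 257 CPM in injury and 266, 268 and 269 in conduit, and Rpl11 165, 132 and 130 in injury and 141, 148 and 158 in conduit. In each of these genes the highest library was injury sample 1. For Rpl10, Rpl5 and Rpl11 every conduit library lay between it and injury sample 3.

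Along the exit tunnel, 6 of 8 listed genes were higher and 2 lower, with a median of 0.03. Rpl17, in the tunnel wall, was 260, 180 and 148 CPM in injury and 191, 198 and 276 in conduit. It had the second largest spread within groups, 0.36 on the log2 scale against a median of 0.18 over members, and its direction (0.18, SE 0.24) was lost without conduit sample 3 (-0.01). Rpl39, deep in the tunnel, was 72.9, 51.9 and 58.3 CPM in injury and 66.3, 55.8 and 60.3 in conduit. Rpl38, on the surface and known for a selective role in embryonic patterning, was 104, 69.4 and 85.6 CPM in injury and 85.5, 82.3 and 107 in conduit. Rpl35a, a further Diamond-Blackfan gene, was 58.7, 41.9 and 51.4 CPM in injury and 54.5, 55.2 and 52.9 in conduit (0.10, SE 0.13). The groups overlapped for these 4 genes.

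The stalk proteins stood at high levels and were highest in injury sample 1. Rplp0 was 645, 509 and 507 CPM in injury and 516, 526 and 600.2 in conduit (-0.02, SE 0.13). Rplp1 was 273, 189 and 198 CPM in injury and 200.02, 202 and 220 in conduit, and Rplp2 176, 106 and 132 in injury and 111, 125 and 135 in conduit. All 3 overlapped between groups.

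Rpl12, which forms the base of the stalk with Rplp0, did not follow them. It was 111, 80.8 and 86.9 CPM in injury and 122, 121 and 132 in conduit, so that every conduit library exceeded every injury library, injury sample 1 included. The fold change was 0.43 (SE 0.13, edgeR unadjusted p = 0.0142, adjusted p = 0.748), and Rpl12 did not pass over all genes. It ranged from 0.33 to 0.59 with 1 library left out and was 0.49 within batch 2. Scaling to the members was added after the data were seen and reuses the same counts, so it is no independent support for this difference. After the members' median was subtracted in each library, Rpl12 lay at -0.20, -0.24 and -0.22 in injury and at 0.23, 0.20 and 0.24 in conduit on the log2 scale. Its 6 values thus fell on 2 levels with little spread within a group.

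As a ratio, chosen after these values were seen, Rpl12 gave 10.2, 10.1 and 10.4 counts per 100 counts of the stalk genes Rplp0, Rplp1 and Rplp2 in injury, and 14.8, 14.2 and 13.8 in conduit. The exact permutation test gave p = 0.1, two-sided, the smallest that 3 against 3 samples allow. With libraries scaled to the members alone, also added after the data were seen, edgeR gave Rpl12 a log2 fold change of 0.44 (SE 0.10, unadjusted p = 0.00193, adjusted p = 0.868). Rpl12 did not pass over all genes on this scale either. There 2 members, Rpl12 and Rpl30, stood at an unadjusted edgeR p under 0.05, both higher, beside 1.57% of all genes higher.

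**Figure D2:**
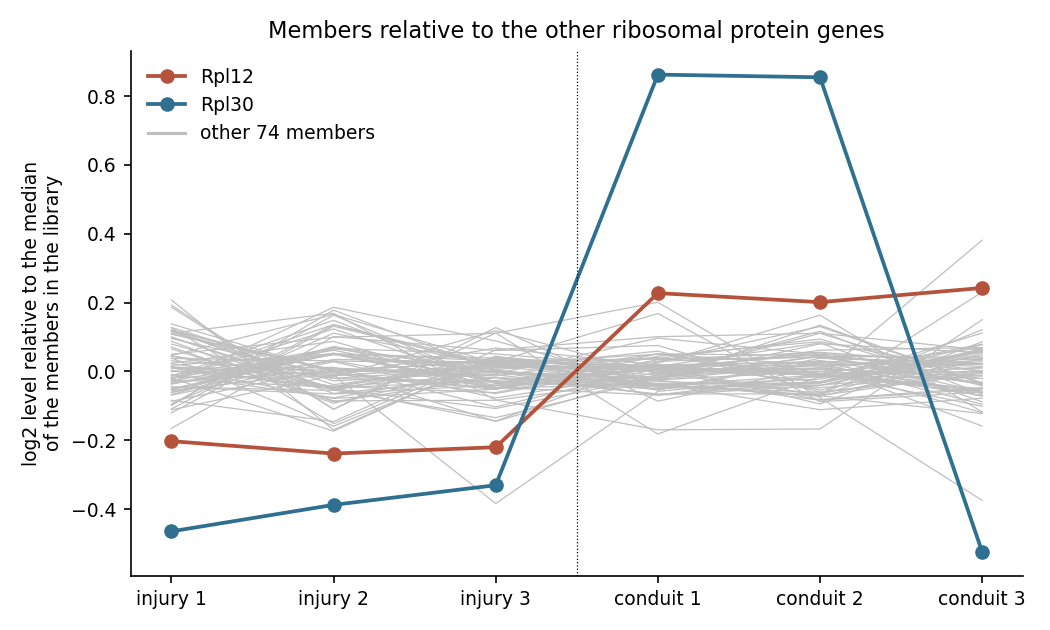
Log2 level of each member relative to the median of the 76 members in the same library, 1 line per gene, with Rpl12 in red and Rpl30 in blue. Rpl12 lies near -0.2 in the 3 injury libraries and near 0.2 in the 3 conduit libraries; Rpl30 is high in conduit samples 1 and 2 alone.

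After this centring most members lay close to the library's member median, which is taken from these same genes. Of the 456 values, 96.1% lay within 0.2 of the library's member median, and 70 of 76 genes did so in every library. The median SD over 6 libraries was 0.164 before and 0.0642 after this centring on the log2 scale, and no other gene set was centred on its own median for comparison. The centred groups did not overlap for 8 members. They included Rpl12, Rpl14, Rpl35 and Rps15a on the higher side (3.71% of all genes, centred in the same way), and Rpl18, Rpl36a and Rps9 on the lower side (2.04%), named after their values were seen. In those named here apart from Rpl12 no centred value exceeded 0.17 in size, and for Rps15a the centred values ran from -0.05 to 0.04.

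Rpl30, which binds at the interface of the subunits, showed the largest difference of any member, and the count table holds a copy of it. It had 37.7, 29.6 and 32.7 CPM in injury and 77.2, 77.3 and 31.4 in conduit. Conduit samples 1 and 2 were high, while conduit sample 3 lay within the injury range. The fold change was 0.89 (SE 0.33, edgeR unadjusted p = 0.0336, adjusted p = 0.891). Without injury sample 1 and conduit sample 3 it was the only member that edgeR called (1.32, adjusted p = 0.0128). In the same table the gene Rpl30l2, which RefSeq annotates with a span of 482 bases equal to its length and so without introns, moved the other way. It had 107, 82.4 and 88.4 CPM in injury and 51.0, 52.0 and 94.0 in conduit.

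Rpl30l2 took 73.9%, 73.6% and 73.0% of the counts of the pair in injury and 39.8%, 40.2% and 74.9% in conduit. The share was thus near 3 in 4 in 4 libraries and near 2 in 5 in conduit samples 1 and 2. Summed, the pair had 144, 112 and 121 CPM in injury and 128, 129 and 125 in conduit, and edgeR gave the sum a log2 fold change of 0.02 (SE 0.11, unadjusted p = 0.850). The sources used here do not give how reads that match both genes were counted, so the level of either gene alone is uncertain, and what set the 2 shares was not tested.

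**Figure D3:**
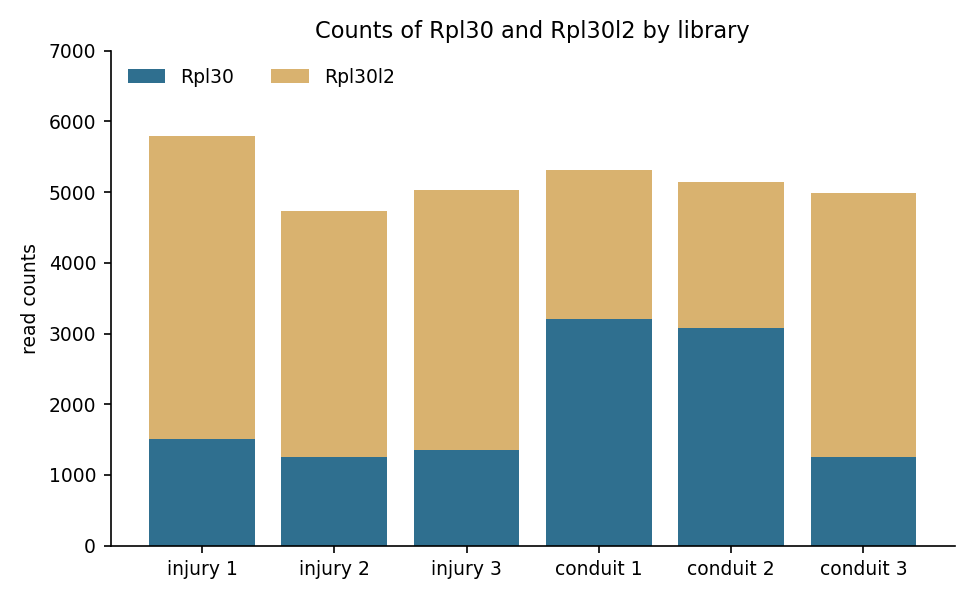
Read counts of Rpl30 (blue) and of its intronless copy Rpl30l2 (yellow), stacked, in each library. The stacks reach 4735 to 5800 counts, while the blue part is 3199 and 3076 counts in conduit samples 1 and 2 and between 1252 and 1515 in the other 4.

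The members moved together from library to library more than between groups. Their median log2 CPM lay 0.25 above their own 6-library mean in injury sample 1, and at -0.17 and -0.08 in injury samples 2 and 3. In conduit samples 1 to 3 it lay at -0.04, -0.03 and 0.05. Injury sample 1 was thus the high library and injury sample 2 the low one, with the conduit libraries between them. The median over all genes was within 0.01 of 0 in each library.

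In injury sample 1, 75 of 76 members were above their own mean, the exception being Rpl30, and 72 had their highest level there, beside 17.5% of all genes. Of 941 other genes at or above the lowest member's level and no longer than the longest member, 261 were highest there and 484 in conduit sample 3. All 30 small subunit members were among these 72. The other 4 were Rpl30, highest in conduit sample 2 (12.8% of all genes), and Rpl12, Rpl17 and Rpl38, highest in conduit sample 3 (22.4%). The largest excess in injury sample 1 was that of Rps27, a zinc-binding protein, with 134, 77.0 and 94.5 CPM in injury and 95.2, 90.9 and 101 in conduit, followed by Rplp2 and Rps21.

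As a share of all counts the members together held 1.67%, 1.35% and 1.35% in injury and 1.40%, 1.36% and 1.41% in conduit. The Wilson 95% interval for injury sample 1 was 1.66% to 1.67%, and it covers counting error only. The means were 1.45% ± 0.185 (SD, n = 3) and 1.39% ± 0.0221, a log2 difference of -0.06 (exact permutation test, two-sided, p = 1). Without injury sample 1 the difference was 0.04. The spread among injury libraries was that of a single library, since the other 5 lay between 1.35% and 1.41%.

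The balance between the subunits was narrower. Large subunit genes gave 1.67, 1.69 and 1.71 counts per count of small subunit genes in injury and 1.70, 1.73 and 1.77 in conduit. The log2 difference was 0.04, with an overlap between injury sample 3 and conduit sample 1 (exact permutation p = 0.2, two-sided). Summed FPKM gave the same difference, 0.04, and the same exact permutation p = 0.2, and within batch 2 the difference was -0.0048. In all 11 single values were tested in this way, of which none can give a p under 0.1. Adjusted over the 11 by Benjamini-Hochberg, the smallest exact permutation p was 0.55.

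**Figure D4:**
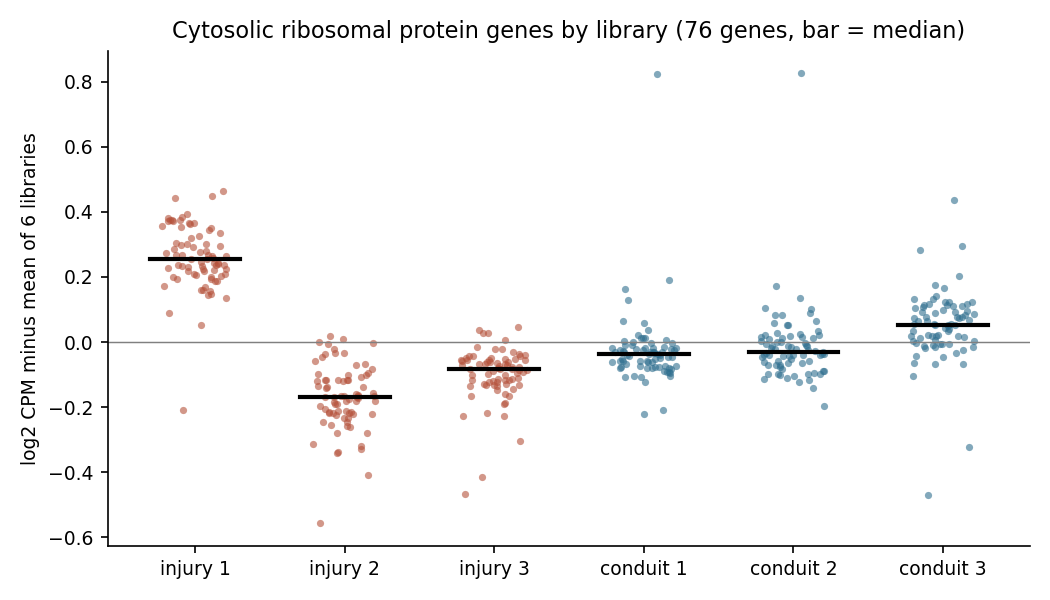
Log2 CPM of each member minus its mean over the 6 libraries, 1 point per gene, with the median of the 76 genes as a bar. The cloud of injury sample 1 sits at 0.25 and that of injury sample 2 at -0.17, while the 3 conduit medians lie between -0.04 and 0.05.

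Gene length went with part of the library differences. The members are short, from 339 bases (Rps28) to 1933 (Rpl15), with a median of 709 against 3341 over all genes. Among the other tested genes, those under 1000 bases had a median deviation of 0.16 in injury sample 1 and of 0.15 in conduit sample 3, and of -0.17 in injury sample 2. Genes over 6000 bases had -0.12, -0.12 and 0.08 in the same libraries. Short genes were therefore high in injury sample 1 and in conduit sample 3, while the members lay at 0.25 in the former and at 0.05 in the latter.

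Against 4785 other genes at or above the level of the lowest member, the 19 members of up to 500 bases lay at 0.33 in injury sample 1 and at 0.04 in conduit sample 3, where 27 other genes of that length lay at 0.20 and 0.17. In the range from 1000 to 1500 bases, 14 members lay at 0.23 and 0.08 and 345 other genes at 0.13 and 0.18. At each length the members were thus higher than other genes in injury sample 1 and lower in conduit sample 3. Among members the rank correlation of length and deviation was -0.34 in injury sample 1 and 0.32 in conduit sample 3 (n = 76), against -0.47 and -0.47 over the 4785 other genes, which share the libraries and are given as a description. What made short genes differ between libraries was not tested.

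**Figure D5:**
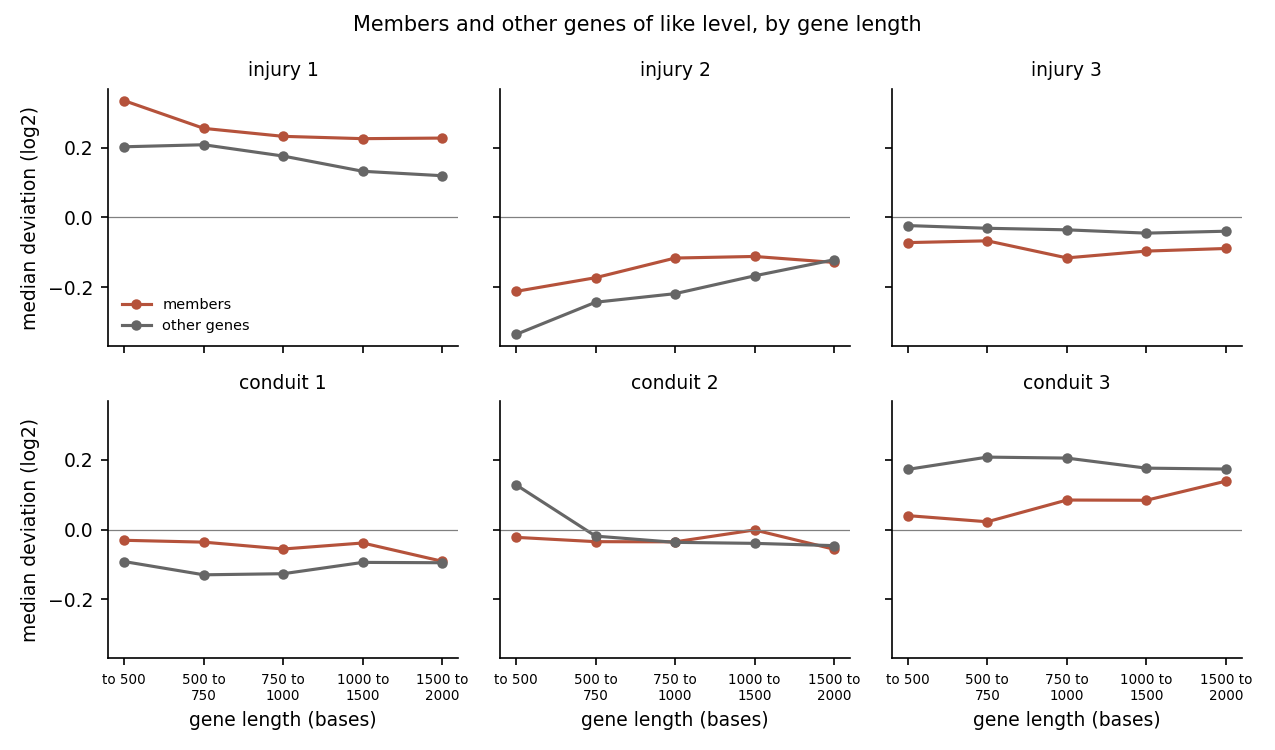
Median deviation from the 6-library mean (log2) in 5 bins of gene length, for members (red) and for other tested genes at or above the level of the lowest member (grey), 1 panel per library. In injury sample 1 the red line runs above the grey one and in conduit sample 3 below it.

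Other cells' RNA also differed between libraries. Summed over 8 markers of dividing cells, the level was 19.0 CPM in injury sample 1, 102 and 68.1 in injury samples 2 and 3 and 16.1 to 24.1 in conduit. Summed over 7 neutrophil markers it was 52.7, 628 and 119 in injury and 8.66 to 30.6 in conduit, and over 13 erythroid markers 5281, 5682 and 4869 in injury and 541 to 1335 in conduit. Summed over 5 Schwann cell markers it was 35149, 28769.5 and 34529 CPM in injury and 47107, 42043 and 48263 in conduit. Summed over 10 interferon response genes it was 227, 209.9 and 605 in injury and 1421, 1036 and 1021 in conduit. These 2 sums were higher in every conduit library, as were Rpl12 and Vim, and their part in those results was not tested. The sensory neuron sum was 10303, 9141 and 9193 CPM in injury and 8047, 8880 and 11601 in conduit. It was thus highest in conduit sample 3 and, among injury libraries, in injury sample 1. None of the sums named here was highest of all in injury sample 1. With the erythroid genes left out of the total, the members' share was 1.68%, 1.35% and 1.36% in injury and 1.40%, 1.37% and 1.41% in conduit. In conduit sample 2, where muscle RNA was highest, the members' median was -0.03. The part of these cells in the members' levels was otherwise not tested.

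The count table also holds 27 rows named as copies of 19 members, outside the rule, and 4 of them had 0 counts in every library while 17 had at least 100 over all. RefSeq names 871 pseudogenes of the members, at least 1 for each, with a median of 11 and a maximum of 36, for Rps2, and no row of the table carries a name of that kind. Reads from such copies and from their parents cannot be told apart by counts per symbol, so the level of a member may include or miss such reads. With these rows summed to their members, apart from the 1 relative of Rps4x, edgeR still called 0 members.

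Among the paralogs, Rps27l, a p53-induced relative of Rps27, had 19.0, 14.0 and 18.1 CPM in injury and 21.0, 20.9 and 20.1 in conduit. It was higher in every conduit library but did not pass (0.28, SE 0.14, edgeR unadjusted p = 0.0806, adjusted p = 0.99981). Rpl22l1, which can take the place of Rpl22, was 27.1, 17.8 and 21.5 CPM in injury and 25.2, 26.04 and 25.3 in conduit, and its groups overlapped. Rpl3l, the form of Rpl3 used in skeletal and heart muscle, had 122, 59 and 31 counts in injury and 6, 1159 and 16 in conduit, with its peak in the library rich in muscle RNA. Rpl39l, known from the testis, had 121 counts in injury sample 1 and 1 to 21 in the other 5 libraries. Rpl36al1 took between 48.2% and 53.1% of the counts of its pair with Rpl36a, so this split did not shift as that of Rpl30 did.

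The rest of the translation machinery also gave no edgeR call. Of 74 tested mitochondrial ribosomal protein genes, 54 were higher and 20 lower, with a median of 0.05, and 45 of them were highest in conduit sample 3 and 22 in injury sample 1. That median did not keep its sign: it was -0.066 within batch 2, -0.020 without injury sample 2 and -0.026 without conduit sample 3. It was 0.17 without injury sample 1. With total count scaling it was -0.0051, where the median over all genes was -0.05, so it stayed above that of all genes. The cytosolic members differed from the mitochondrial genes in that 72 of 76 were highest in injury sample 1 and 3 in conduit sample 3. This difference was not tested. Initiation factors gave 18 higher and 14 lower of 32, with a median of 0.02. Elongation and release factors gave 6 higher and 7 lower of 13, with a median of -0.04, which was 0.075 without injury sample 1 and 0.057 without conduit sample 1, and their median deviation in injury sample 1 was 0.21, near that of the members.

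Other messages known to carry a 5′ TOP gave 12 higher and 9 lower of 21, with a median of 0.01, which ranged from -0.058 to 0.13 with 1 library left out. Vim, the intermediate filament vimentin, was 1121, 1055 and 1063 CPM in injury and 1307, 1280 and 1314 in conduit. All its conduit libraries were higher, and DESeq2 called it while edgeR did not (0.27, SE 0.08, edgeR unadjusted p = 0.0103, adjusted p = 0.716). Genes of TOR signalling to the ribosome gave 8 higher and 11 lower of 19, with a median of -0.02. Ribosome assembly genes gave 13 higher and 34 lower of 47, with a median of -0.04 and 5 whose groups did not overlap, all lower, beside 4.22% of all genes. RNA polymerase I, which makes ribosomal RNA, gave 5 higher and 10 lower of 15, with a median of -0.04. Genes listed for ribosomal protein sensing by p53, among them Sesn1, Ccng1 and Phlda3, gave 6 higher and 4 lower of 10, with a median of 0.04. Genes of ribosome quality control and the integrated stress response gave 7 higher and 10 lower of 17, with a median of 0.00.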

How the data were processed

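RNA-seq counts of 3 injury and 3 conduit samples were used, with groups from the sample titles. The deposited counts are whole reads per gene symbol, and the FPKM values are the authors' scaling of them by gene length and library total, so the FPKM are no independent measurement. Per the submitters' processing notes, fastp, HISAT2, HTSeq, SAMtools, DESeq2 and the build mRatBN7.2 were used (versions, strand and shared-read settings: not given in the sources used here).

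Members and lists were chosen with earlier results of these data known. In R 4.3.3, genes passing filterByExpr (minimum count 10) were scaled by TMM and tested with edgeR 4.0.16 (robust quasi-likelihood, no covariate, Benjamini-Hochberg over 16478 genes, adjusted p under 0.05), with 4 residual degrees of freedom. The fit was tested on simulated data. Single values were compared by exact permutation tests. Alternatives used DESeq2 1.42.0, limma 3.58.1, other scalings and filters, the replicate number or batch in the fit, and libraries left out. A prior count of 2 was added for log2 CPM. Depth was 40172473 to 41903629 counts per library, so the lowest member still had 1252 counts in its lowest library, and counting error is small beside the spread between libraries.

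Members named singly were the 4 markers, the 5 highest and 5 lowest in FPKM, the 4 per direction with the smallest p, the 3 with the largest spread, and Rps27a, Rps4x, Rpl10, Rpl39, Rpl41, Rpl22, Rpl38, Rpl5, Rpl11, Rps19 and Rps26. Other members given per library (Rplp1, Rplp2 and those apart after centring), and the copies Rpl30l2 and Rpl36al1, were chosen after their values were seen. Some genes are not reported here. Start sequences are RefSeq's on GRCr8, matched by symbol; no coordinates were converted. Protein sequences were not analysed here.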

Additional observations from a re-analysis of the deposited data

How the results depend on the processing

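Members called stayed at 0 in every alternative except without injury sample 1 and conduit sample 3, which gave 1. Over all genes edgeR called 1. That count was 6 with no filter, 208 with DESeq2, 7 and 3 with limma on log2(FPKM + 1) and log2(FPKM + 0.1), 0 with batch in the fit, 42 without injury sample 1 and conduit sample 3 and 2 scaled to the members. With 1 library left out it ranged from 0 (conduit sample 3 left out) to 38 (injury sample 1), with 35 for injury sample 3 and 6 for conduit sample 1.

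With the replicate block 0 genes and 0 members were called, and no other call changed. The deviations of same-numbered samples correlated at -0.42, 0.06 and -0.07 over all genes, and no library correlated best with its own number. Deviations from means of 3 libraries cannot exclude a pairing, so whether same-numbered samples are paired is not known.

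The members' summed share changed direction within batch 2 (0.051) and without injury sample 1 and conduit sample 3 (0.035). With 1 library left out it ranged from -0.11 to 0.044, the highest without injury sample 1. The subunit ratio was -0.0048 within batch 2. The members' median spread ranged from 0.072 to 0.231 with 1 library left out, the lowest without injury sample 1.

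Medians of related lists moved by more than their spread. With total counts they were -0.039 for initiation factors, -0.080 for TOR signalling, -0.10 for assembly, -0.10 for RNA polymerase I, -0.012 for p53 sensing and -0.061 for quality control. With log2(FPKM + 1) they were -0.039, -0.077, -0.097, -0.012 and -0.054 in that order without RNA polymerase I, and with log2(FPKM + 0.1) -0.045, -0.079, -0.10, -0.016 and -0.062. Batches 1 and 3 each hold a single group, so the fit with batch takes its group difference from batch 2 alone. Within batch 2, and so with batch in the fit, initiation factors gave -0.039, assembly -0.10 and RNA polymerase I -0.10. Quality control gave -0.032 with upper-quartile scaling. Over all genes the median was -0.05 with total counts and -0.02 with upper-quartile scaling, so shifts in those settings were partly shared by all genes. Without injury sample 1 and conduit sample 3, p53 sensing gave 0.12 and quality control -0.049. With 1 library left out the ranges were -0.093 to -0.015 for assembly, -0.032 to 0.019 for RNA polymerase I, 0.0087 to 0.17 for p53 sensing and -0.041 to 0.039 for quality control.

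Single genes changed sign, among them members with larger differences: with all libraries Rps27a and Rps21 were -0.17 and Rpl17 0.18. Within batch 2, and so with batch in the fit, which rests on that batch alone, Rps27a was 0.14, Rpl3 0.027, Rplp0 0.024 and Rps6 0.036. Without injury sample 1 and conduit sample 3, Rps27a was 0.061, Rps21 0.044 and Rplp0 0.042. Rps18 was -0.0084 with upper-quartile scaling, -0.032 with total counts and -0.011 with both FPKM settings. With 1 library left out the ranges were -0.013 to 0.45 for Rpl17, -0.024 to 0.22 for Rpl35a, -0.33 to 0.050 for Rps21, -0.15 to 0.012 for Rpl3, -0.089 to 0.12 for Rplp0, -0.15 to 0.044 for Rps6 and -0.086 to 0.25 for Rps18. The cause of these changes was not tested. Rpl12 and Rpl30 kept their direction in every alternative, but Rpl30 fell from 0.89 to 0.02 (SE 0.11) with its copies summed.

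With 3 libraries a group, differences of the size seen for most members cannot be told from the spread between libraries, and depth is not the limit.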
